A study of Mus musculus with 8 samples.

Results

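The colony-stimulating factors are the growth factors of myeloid cells. Described here are 7 genes taken by name, a choice made with earlier results of these data known. They are the ligands Csf1 (M-CSF), Csf2 (GM-CSF) and Csf3 (G-CSF), and the receptor chains Csf1r, Csf2ra, Csf2rb and Csf2rb2. All 7 were among the 55801 genes of the expression table, each with a single entry. RNA was sequenced from peritoneal macrophages of male C57BL/6 mice aged 6 to 8 weeks, which had received thioglycollate 72 h before harvest to draw macrophages into the peritoneum. The cells were given vehicle (DMSO) or the small molecule C498 at 15 µM for 0.5 h and were then left without or stimulated with LPS, the bacterial endotoxin, at 100 ng/ml for 4 h. This made 4 groups of 2 samples: NC (vehicle), LPS (vehicle then LPS), C498, and C498+LPS. C498 was studied as an inhibitor of the JAK/STAT and NFκB pathways.

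M-CSF keeps macrophages alive through Csf1r, a receptor tyrosine kinase that also binds IL-34. GM-CSF binds its own alpha chain, Csf2ra, which pairs with the beta common chain Csf2rb to activate JAK2 and STAT5. The same beta chain serves the IL-3 and IL-5 receptors, and mice carry an additional beta chain, Csf2rb2, that serves the IL-3 receptor only. G-CSF acts on neutrophils and their precursors through Csf3r. Macrophages make all the ligands, and LPS is a known inducer of Csf2 and Csf3 through NFκB.

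Levels are TPM, which are scaled for gene length and for the total of the sample and can be set side by side between genes. Tests were made with limma on log2(TPM + 1) over the 12189 genes with a mean of at least 1 TPM, so a log2 change understates the change of a gene with a low level. DEGs had to differ by 2-fold or more with an adjusted p no higher than 0.05. All 7 genes passed the filter, but Csf2 did so only through the LPS-treated samples, since NC and C498 were both below 1 TPM. The labels do not say that the 2 samples of a group came from separate animals or cultures, so p-values measure the spread between these samples, which may be technical. TPM keep no trace of the read depth, which is unknown here.

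The label of the samples was checked with 8 macrophage markers, all of which were above 1 TPM. Their summed level was 19800 to 20300 TPM in NC, 17800 to 18300 in LPS, 15700 to 15900 in C498 and 12300 to 14100 in C498+LPS. Markers of neutrophils summed to 115 to 228 TPM over the samples, with the defining granule genes Ngp and Elane at 0 throughout. Markers of fibroblasts summed to 150 to 192 TPM in NC and 176 to 200 in LPS, against 633 to 750 in C498 and 618 to 911 in C498+LPS. In these bulk samples, fewer cells of a type and less RNA per cell cannot be told apart.

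On GRCm38 (GENCODE M21) Csf1 (ENSMUSG00000014599) lies at chr3:107741048-107760469 on the minus strand. Csf2 (ENSMUSG00000018916, chr11:54247271-54249667, minus strand) and Csf3 (ENSMUSG00000038067, chr11:98701263-98703629, plus strand) are on the same chromosome but far apart. Csf2ra (ENSMUSG00000059326) lies at chr19:61223957-61228429 on the minus strand and Csf1r is ENSMUSG00000024621. The beta chain genes are neighbours in opposite orientation, Csf2rb2 (ENSMUSG00000071714) at chr15:78282507-78305721 on the minus strand and Csf2rb (ENSMUSG00000071713) at chr15:78325752-78353847 on the plus strand.

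Csf2rb and Csf2rb2 are near copies, which bears on how far reads can be told apart between them. Each has 14 exons. Their coding sequences are 2688 and 2634 bases long, and of 2628 aligned pairs of bases 2503 (95.2%) are identical. The longest identical run is 242 bases, and 165 of the 4615 windows of 150 bases (the read length) in the Csf2rb transcript, 3.58%, are also found in Csf2rb2. The 100 coding bases of exon 4 with the most differences are shown from GENCODE M21, 5′ to 3′ in the direction of transcription, with the 16 bases that differ in capitals. The first is at chr15:78338887-78338986 on the plus strand and the second at chr15:78294345-78294444 on the minus strand.
Csf2rb: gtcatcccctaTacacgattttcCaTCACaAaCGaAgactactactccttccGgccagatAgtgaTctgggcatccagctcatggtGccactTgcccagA
Csf2rb2: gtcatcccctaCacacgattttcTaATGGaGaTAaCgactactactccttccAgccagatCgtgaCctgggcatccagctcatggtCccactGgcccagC

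RefSeq promoters on GRCm38.p6 were matched for 4 of the 7 genes, Csf1, Csf2, Csf2ra and Csf2rb2. In the 250 bases before the start, read on both strands, Csf1 held a match to the NFκB (kB) consensus motif, which 3.9% of 32851 promoters hold. Csf2rb2 held a match to the STAT motif TTCNNNGAA, present in 7.02% of promoters. None of the 4 held the AP-1 motif TGANTCA (6.75% of promoters) or TATAAA (12.4%). The RefSeq start of Csf2 lies 232 bases from the GENCODE start, so another window would be read there with the other annotation. The Csf1 promoter is shown because it holds the kB match, in capitals, at bases -154 to -145 from the start. It is at chr3:107760470-107760719 on the minus strand, and the match, GGGACTTTCC, is on the reverse of the strand printed.
Csf1 promoter: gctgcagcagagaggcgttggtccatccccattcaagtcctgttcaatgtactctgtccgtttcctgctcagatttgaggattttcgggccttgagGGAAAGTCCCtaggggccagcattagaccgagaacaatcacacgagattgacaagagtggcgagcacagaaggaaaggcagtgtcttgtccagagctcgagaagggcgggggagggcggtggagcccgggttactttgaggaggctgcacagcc

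The receptor chains were abundant and the ligands scarce. Csf2ra had the highest level of the 7 genes in every group, at a mean of 701 TPM in NC, and the ligands had the lowest, always in the order Csf1, Csf3, Csf2. Csf1r was the next after Csf2ra in NC, at 313 TPM, although its samples overlapped those of Csf2rb. In C498+LPS it stood at 104 TPM, below both beta chains.

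**Figure D1:**
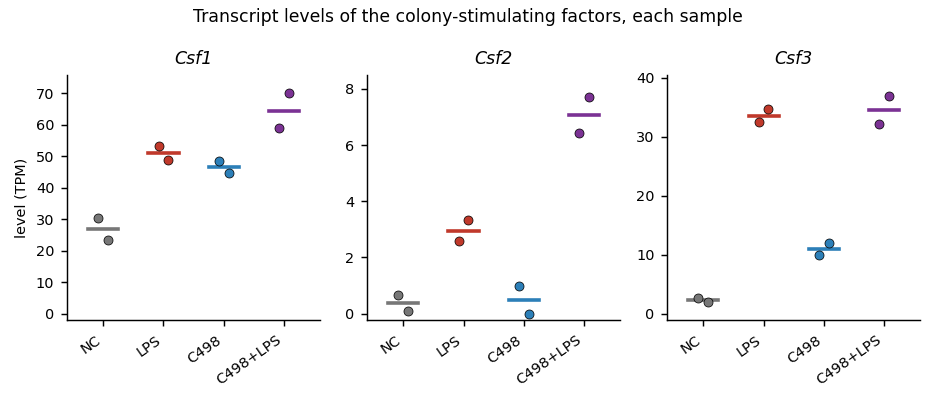
TPM (vertical axes, each with its own scale) of the ligands Csf1, Csf2 and Csf3 in NC, LPS, C498 and C498+LPS; points are the 2 samples of a group and lines their mean. Csf3 stood at 32.25 to 36.88 TPM in all samples that received LPS, and Csf2 was highest in C498+LPS, at 6.43 and 7.72 TPM.

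LPS raised Csf3, the granulocyte growth factor, more than any other of the 7 genes. Csf3 stood at 2.74 and 1.93 TPM in NC and at 32.45 and 34.69 in LPS. The mean was 14.4 times higher, with a log2 change of 3.38 (SE 0.175, adjusted p = 2.95e-05). Csf2, which drives macrophage survival and inflammatory activation, stood at 0.66 and 0.11 TPM in NC and at 2.58 and 3.32 in LPS. It rose by 1.53 on the log2 scale (SE 0.375, adjusted p = 0.0206), and both of its NC samples were below 1 TPM. With LPS replicate 2 left out the adjusted p of Csf2 was 0.113, with LPS replicate 1 left out 0.0765 and with NC replicate 2 left out 0.0779, so its call rests on single samples.

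Csf1, the growth factor that resident macrophages depend on, differed less. It stood at 30.25 and 23.31 TPM in NC and at 53.27 and 48.67 in LPS, so the groups did not overlap. Its log2 change of 0.91 (SE 0.153, adjusted p = 0.00489) was short of 2-fold, at a ratio of 1.9. It was 1.09 without NC replicate 1 and 1.08 when samples were centred on the median gene (adjusted p = 0.000779), and was called in both cases. Csf2 and Csf3 were thus the DEGs among the 7 genes in LPS vs NC, where 12.2% of all tested genes were called, 5.55% higher and 6.68% lower. Csf2 is counted there although it passed the filter only through the LPS-treated samples. Its call was also lost with a pseudocount of 0.1 and without a filter on low values. With no fold threshold 29.6% of tested genes passed, and 19.3% were higher and 42.2% lower in all LPS samples than in all NC samples.

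Among the receptor chains in LPS vs NC, Csf1r had 354.90 and 271.62 TPM in NC and 181.65 and 207.68 in LPS. Every LPS sample was below both NC samples, at a log2 change of -0.67 (SE 0.181, adjusted p = 0.029) that was short of 2-fold. Csf2ra, with 742.06 and 659.70 TPM in NC and 627.83 and 670.99 in LPS, overlapped between the groups (log2 change -0.11, 95% interval -0.374 to 0.157). The beta chains were at 330.26 and 223.95 TPM in NC and 213.03 and 186.61 in LPS for Csf2rb, and at 194.87 and 128.71 against 131.01 and 112.19 for Csf2rb2. Their log2 changes of -0.45 and -0.38 did not pass (adjusted p = 0.127 and 0.199). Over alternative settings, left-out samples among them, the changes lay between -0.725 and -0.167 for Csf2rb and between -0.68 and -0.0856 for Csf2rb2. The median change of all tested genes was -0.169 in this comparison, on the same side of 0 as these differences.

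**Figure D2:**
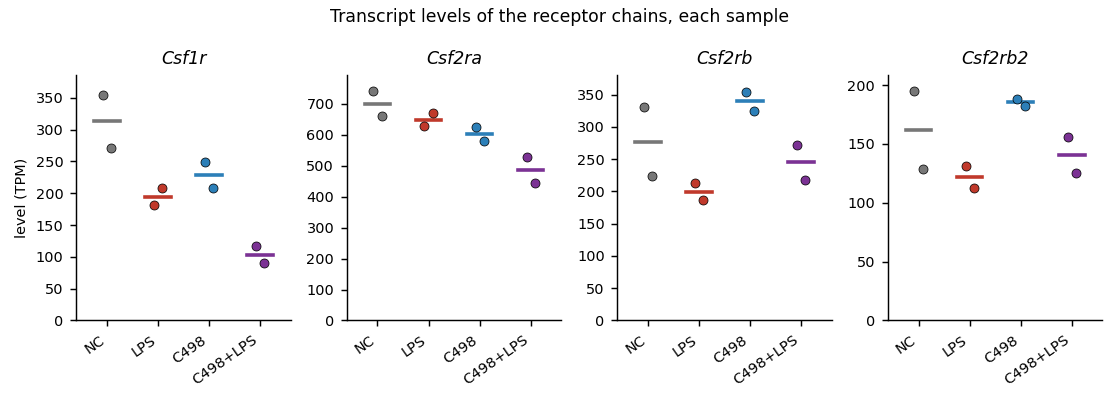
TPM (vertical axes from 0, each with its own scale) of the receptor chains Csf1r, Csf2ra, Csf2rb and Csf2rb2 in the 4 groups; points are the 2 samples and lines their mean. Csf1r stood at 354.90 and 271.62 TPM in NC and at 117.30 and 89.94 in C498+LPS, with no overlap between groups, while the beta chains were highest on average in C498.

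Cells that had been given C498 responded to LPS with the same ligands. Csf3 stood at 9.87 and 12.02 TPM in C498 and at 32.25 and 36.88 in C498+LPS, a 3.16-fold rise (log2 change 1.58, SE 0.175, adjusted p = 0.00193). Csf2 stood at 0.98 and 0.00 TPM in C498 and at 6.43 and 7.72 in C498+LPS, and rose by 2.52 on the log2 scale (SE 0.375, adjusted p = 0.00635). Without C498+LPS replicate 2 the adjusted p of Csf2 was 0.0553. Csf1 had 48.43 and 44.64 TPM in C498 and 58.96 and 70.03 in C498+LPS, which did not overlap, but its log2 change of 0.46 did not pass (SE 0.153, adjusted p = 0.0855).

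Csf1r, the M-CSF receptor, was the receptor chain called in this comparison. It had 249.42 and 208.87 TPM in C498 and 117.30 and 89.94 in C498+LPS, a log2 change of -1.14 (SE 0.181, adjusted p = 0.00795). The call was lost without C498 replicate 1 (log2 change -1.02, adjusted p = 0.0786) and without C498+LPS replicate 2 (-0.95, 0.0633), and also when samples were centred on the median gene (-0.93, short of 2-fold). Csf2ra, Csf2rb and Csf2rb2 had log2 changes of -0.31, -0.48 and -0.41 with adjusted p of 0.104, 0.139 and 0.214. Thus 3 of the 7 genes were called in C498+LPS vs C498, where 5.64% of all tested genes were, 2.52% higher and 3.13% lower. Csf2 is 1 of these, and it passed the filter only through the LPS-treated samples. Without the fold threshold 16.2% passed, and the samples did not overlap for 17.4% of genes on the higher and 48.8% on the lower side.

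C498 alone was accompanied by a higher Csf3 level. The C498 samples, at 9.87 and 12.02 TPM, were both above the NC samples at 2.74 and 1.93, a 4.69-fold difference (log2 change 1.84, SE 0.175, adjusted p = 0.00103). Csf1 was 1.74 times higher in C498 than in NC, with no overlap (log2 change 0.79, SE 0.153, adjusted p = 0.0175), short of 2-fold. Csf2 overlapped fully and stayed below 1 TPM in both groups (log2 change 0.05, 95% interval -0.829 to 0.933). Csf3 was thus the 1 DEG of the 7 genes in C498 vs NC, where 7.0% of tested genes were called (5.64% higher and 1.36% lower, or 687 and 166 genes, against 1187 and 195 without NC replicate 1 and 274 and 71 without C498 replicate 1), and its call held under all 18 alternatives, at log2 changes of 1.67 to 2.19. Without the fold threshold 15.5% of tested genes passed, and the samples did not overlap for 29.3% on the higher and 28.4% on the lower side.

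The receptor chains were not called in C498 vs NC. Csf1r was at 249.42 and 208.87 TPM in C498 against 354.90 and 271.62 in NC (log2 change -0.44, SE 0.181, adjusted p = 0.143). Csf2ra was lower in both C498 samples (626.55 and 579.48 TPM) than in both NC samples, at a log2 change of -0.22 (adjusted p = 0.237). Csf2rb had 354.60 and 324.79 TPM in C498 and Csf2rb2 188.44 and 182.36, with log2 changes of 0.32 and 0.23 (adjusted p = 0.299 and 0.476). Over alternative settings, left-out samples among them, these lay between 0.0391 and 0.5975 for Csf2rb and between -0.0717 and 0.5229 for Csf2rb2.

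With LPS present, the comparison of C498+LPS with LPS gave no DEG among the 7 genes in limma, although 3 had an unadjusted p under 0.05, as did 31.2% of all tested genes, and 7.57% of all tested genes were called (5.39% higher and 2.18% lower). Without the fold threshold 16.8% passed, and the samples did not overlap for 31.9% of genes on the higher and 30.9% on the lower side. Csf2 was at 6.43 and 7.72 TPM in C498+LPS against 2.58 and 3.32 in LPS, a ratio of 2.4 with no overlap. Its log2 change was 1.03 (SE 0.375, 95% interval 0.152 to 1.91) and its adjusted p was 0.11. With the spread taken from the compared groups alone the adjusted p was 0.0426, and the gene was then called. Csf3 had nearly the same level in both groups, 32.25 and 36.88 TPM against 32.45 and 34.69, and its log2 change was 0.04 with a 95% interval of -0.373 to 0.45. Csf1 had a log2 change of 0.33 (SE 0.153, adjusted p = 0.194), and its samples did not overlap.

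In the same comparison Csf1r was lower in both C498+LPS samples, at 117.30 and 89.94 TPM, than in the LPS samples, at 181.65 and 207.68. The log2 change was -0.91 (SE 0.181, adjusted p = 0.0154), short of 2-fold. It reached -1.10 and was called without C498+LPS replicate 1. Csf2ra was at 529.76 and 443.11 TPM in C498+LPS, below LPS with a ratio of 0.749 (log2 change -0.42, SE 0.113, adjusted p = 0.0442). Csf2rb and Csf2rb2, at 271.97 and 217.89 TPM and at 155.65 and 124.95, had positive log2 changes of 0.29 and 0.20 that did not pass (adjusted p = 0.368 and 0.561). The summed macrophage markers were also lower in C498+LPS than in LPS, a sum that is mostly Lyz2 (means of 8536 and 13220 TPM). Of the other 7 macrophage markers, 5 had negative log2 changes, namely Adgre1 (-0.92, adjusted p = 0.0047), Fcgr1 (-0.77, 0.0186), Itgam (-0.62, 0.128), Mertk (-0.34, 0.492) and Cd68 (-0.11, 0.47), and Mrc1 (0.26, 0.547) and Cd14 (0.47, 0.00926) had positive ones. Fibroblast markers were higher in both C498 groups. Their part in these differences was not tested.

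**Figure D3:**
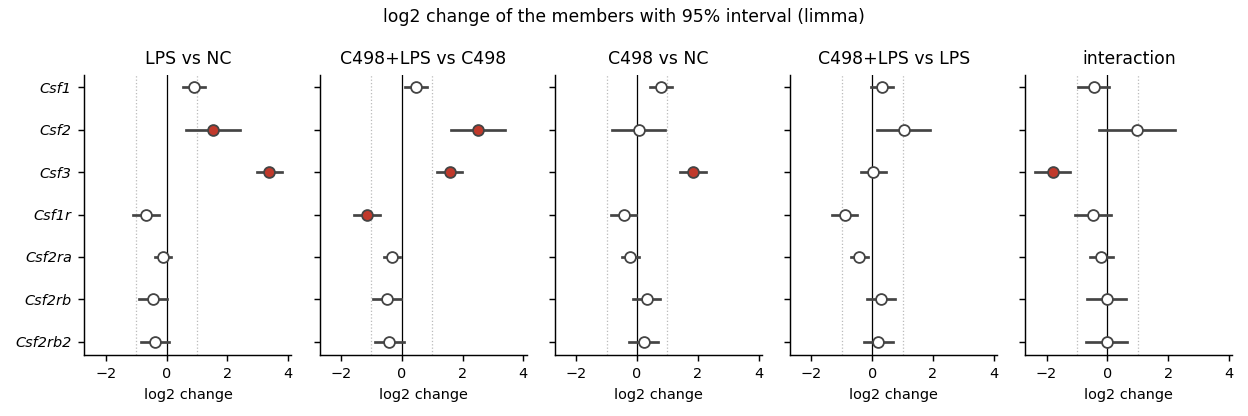
Log2 change of each of the 7 genes (horizontal axis, log2 of TPM + 1) in each of the 4 comparisons and in the interaction, with 95% intervals from limma; red points are DEGs. Csf3 lay far to the right in LPS vs NC at 3.38, and its interval covered 0 for C498+LPS against LPS.

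Whether the LPS response itself differed with C498 was tested by the interaction. For Csf3 the LPS response was smaller in C498-treated cells by 1.81 log2 units (interaction -1.81, SE 0.248, 95% interval -2.39 to -1.22, adjusted p = 0.0391). In TPM the mean was 31.2 higher in LPS than in NC and 23.6 higher in C498+LPS than in C498. Of the groups that received no LPS, the mean of C498 was 8.61 TPM above that of NC. Csf3 was the 1 gene of the 7 called in the interaction, where 0.468% of tested genes were (0.0738% above and 0.394% below 0) and 0.492% passed without the fold threshold. The size kept its direction in all 17 alternatives (-2.16 to -1.63), but the call did not: leaving out NC replicate 2 gave an adjusted p of 0.0642, and leaving out LPS replicate 1 gave 0.196, LPS replicate 2 0.18, C498 replicate 1 0.157, C498 replicate 2 0.161, C498+LPS replicate 1 0.147 and C498+LPS replicate 2 0.133. The interaction of Csf2 was 0.98 (SE 0.53, adjusted p = 0.563), that of Csf1 -0.46 and that of Csf1r -0.47 (adjusted p = 0.504 and 0.564). Those of Csf2ra, Csf2rb and Csf2rb2 lay between -0.21 and -0.025.

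LPS vs NC and C498 vs NC share the NC samples, and C498 vs NC and C498+LPS vs C498 share the C498 samples. C498+LPS vs LPS shares samples with both LPS comparisons. The values are therefore set side by side and not counted as separate support. LPS vs NC and C498+LPS vs C498 share no samples, but their spread comes from the same fit of all 8 samples. In these, Csf3 changed by 3.38 and 1.58 and Csf2 by 1.53 and 2.52, while Csf1r had changes of -0.67 and -1.14.

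The share of each beta chain differed little in size between groups. Csf2rb made up 62.89% and 63.5% of the summed TPM of Csf2rb and Csf2rb2 in NC, 61.92% and 62.45% in LPS, 65.3% and 64.04% in C498, and 63.6% and 63.55% in C498+LPS. The mean differed between groups by at most 1.47 percentage points in the 4 comparisons. That largest difference, C498 vs NC, was 0.845 without C498 replicate 1 and 2.1 without C498 replicate 2, and that of C498+LPS vs C498, -1.09, was -0.465 and -1.72 without these. The exact permutation test (two-sided) gave p = 0.333 in each, the smallest p that 2 against 2 samples allow. The samples did not overlap in any of these comparisons, and the share was lower with LPS and higher with C498 each time. Part of the reads of these near copies may be split between them by the quantification, so their ratio is uncertain. The level of Csf2ra over that sum was 1.41 and 1.87 in NC, 1.82 and 2.25 in LPS, 1.15 and 1.14 in C498, and 1.24 and 1.29 in C498+LPS. Every sample with C498 was below every sample without it, in a ratio of an alpha chain to both beta chains that was not tested.

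Of the partner receptors, Csf3r, the G-CSF receptor, was at 36.46 and 35.23 TPM in NC, 38.65 and 36.13 in LPS, 18.23 and 18.93 in C498 and 17.01 and 13.24 in C498+LPS. All 4 samples with C498 were below all 4 without it. It fell by 1.26 on the log2 scale in C498+LPS vs LPS (SE 0.14, adjusted p = 0.00191) and was lower by less than 2-fold in C498 vs NC (log2 change -0.91, adjusted p = 0.00738), while LPS vs NC gave 0.06 (adjusted p = 0.794). The neutrophil markers, which mark the cell type best known for Csf3r, summed to 208 to 228 TPM in NC and 188 to 209 in LPS against 117 to 126 in C498 and 115 to 140 in C498+LPS. Nearly all of the sum came from S100a8 (mean of 102 TPM in NC) and Mmp8 (109), while S100a9, Cxcr2, Mpo, Elane and Ngp were below 1 TPM in every sample and Ly6g was above 0 in 1 sample, at 2.62. Of the lower markers, Retnlg had means of 4.98 TPM in NC, 4.27 in LPS, 0.905 in C498 and 0.54 in C498+LPS, and so passed the filter through the groups without C498, where it is high. Camp, at means of 0.5 to 3.12 TPM, was not called in any of the 4 comparisons. Their part in the Csf3r difference was not tested. Il3ra, the alpha chain of the IL-3 receptor, lay between 107.87 and 155.71 TPM and was not called in any of the 4 comparisons. The ligands Il34, Il3 and Il5 and the chain Il5ra were below 1 TPM on average over the 8 samples and were not tested, the highest single value being 2.42 TPM for Il5 in C498+LPS.

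Among 24 transducers of these receptors, Src, Jak2 and Stat5a were called higher with LPS, both without and with C498, where 5.55% and 2.52% of all tested genes were. Stat5a, the factor that GM-CSF receptors activate through JAK2, had 18.00 and 12.99 TPM in NC and 65.94 and 53.12 in LPS, a log2 change of 1.88 (adjusted p = 0.000813), and 2.23 in C498+LPS vs C498 (adjusted p = 0.000909). Jak2 rose by 2.33 and 1.52 in these comparisons. No transducer was called higher in C498+LPS vs LPS, and Fgr and Pik3cd, a Src-family kinase and a PI3-kinase subunit, were called lower, at -1.34 and -1.14, beside 2.18% of all tested genes. The median change of the list was -0.298 there, beside 0.00653 for all tested genes, and 9 of 24 had an unadjusted p under 0.05, against 31.2% of all tested genes.

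The 11 inhibitors of receptor signalling held genes called in both directions. LPS vs NC gave 3 called higher and 2 lower, and C498+LPS vs C498 gave the same numbers, where 5.55% and 6.68%, and 2.52% and 3.13%, of all tested genes were called. Against LPS, C498+LPS gave 1 higher and 2 lower (5.39% and 2.18% of all tested genes), and C498 vs NC gave 3 higher and 1 lower (5.64% and 1.36%). Socs1, Socs3 and Cish, which are switched on by STATs and block receptor signalling in return, were called higher with LPS in either setting and with C498 alone. Cish, a textbook STAT5 target, was at 2.87 and 3.15 TPM in NC, 11.94 and 11.43 in LPS, 10.58 and 8.97 in C498, and 31.79 and 29.88 in C498+LPS. It rose in all 4 comparisons, by 1.66 for LPS (adjusted p = 0.000309) and 1.42 for C498 (0.00145) against NC, and by 1.57 for C498+LPS against C498 (0.000958) and 1.33 against LPS (0.0019). Dok2, a docking protein that dampens tyrosine kinase signals, was called lower in all 4 comparisons, at -1.53 for LPS and -1.41 for C498 against NC, and at -1.24 for C498+LPS against C498 and -1.12 against LPS. Inpp5d, a lipid phosphatase, fell by 2.45 and 2.32 with LPS, and Ptpn6, a tyrosine phosphatase, fell by 1.28 in C498+LPS vs LPS.

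Of 17 genes known to respond to GM-CSF or STAT5, 16 were tested, and Ccl17 was too low. In LPS vs NC, 7 were called higher (Ccnd2, Il1rn, Ccl22, Bcl2a1a, Cish, Pim1 and Osm) and 2 lower (Pparg and Bcl2l1), with a median change of 0.594, beside 5.55% of all tested genes called higher and 6.68% lower. With C498 present, LPS gave 5 called higher and Pparg called lower, beside 2.52% and 3.13% of all tested genes. In C498 vs NC, 7 were called higher and none was called lower, with a median of 0.773 beside 0.0145 for all tested genes, of which 5.64% were called higher and 1.36% lower. Cish, Irf4, Osm and Ccl22 were called higher in C498+LPS vs LPS, at 1.33, 1.32, 1.23 and 1.08, beside 5.39% of all tested genes. Irf4 was below 1 TPM on average in NC (0.46) and LPS (0.80) and Ccnd2 in NC (0.91), so, like Csf2, they passed the filter through the groups where they are high. Many of these genes are also known to respond to LPS itself, so the list does not single out GM-CSF. Osm, a cytokine of the IL-6 family, had means of 4.63 TPM in NC, 10.8 in LPS, 38.2 in C498 and 26.5 in C498+LPS. It rose by 2.80 in C498 vs NC (adjusted p = 0.000133), and in C498+LPS vs C498 its change was -0.51 (adjusted p = 0.0664).

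**Figure D4:**
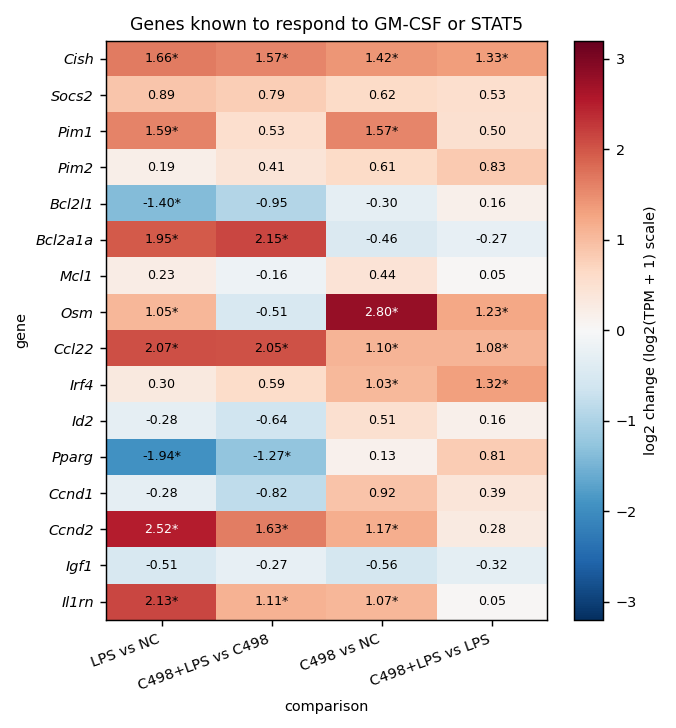
Log2 change (colour scale) of the 16 tested genes known to respond to GM-CSF or STAT5 (vertical axis) in the 4 comparisons (horizontal axis); an asterisk marks a DEG. Cish, at 1.33 to 1.66, and Ccl22, at 1.08 to 2.07, were called higher in all 4 comparisons.

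Of 7 transcription factors of Csf1r and of the myeloid lineage, Ets2 was called higher and Cebpa lower in LPS vs NC, beside 5.55% and 6.68% of all tested genes. Klf4 and Ets2 were called higher in C498 vs NC, at 2.58 and 1.90, beside 5.64% of all tested genes. Cebpa, a factor of myeloid differentiation, was at 196.25 and 201.33 TPM in NC and 29.55 and 29.67 in LPS, a fall of 2.71 on the log2 scale (adjusted p = 8.86e-06). It was at 188.71 and 169.96 TPM in C498 and 46.58 and 39.66 in C498+LPS, a fall of 2.03. The C498+LPS samples were thus above the LPS samples, by less than 2-fold (log2 change 0.52, adjusted p = 0.0185), where Csf1r was lower. Irf8, a factor of monocytes and macrophages, rose by 1.43 in C498+LPS vs LPS (adjusted p = 0.00122), where Klf4 was also called higher, beside 5.39% of all tested genes. Spi1 (PU.1), which activates Csf1r, had means of 450 TPM in NC, 457 in LPS, 262 in C498 and 234 in C498+LPS, with changes of -0.97 with LPS present (C498+LPS vs LPS) and -0.77 without it (C498 vs NC) that were short of 2-fold (adjusted p = 0.00155 and 0.00398).

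Of the 4 genes of Csf1r shedding and its control, 1 was called higher in each of LPS vs NC, C498 vs NC and C498+LPS vs LPS, where 5.55%, 5.64% and 5.39% of all tested genes were. Adam17, the protease that cuts Csf1r from the cell surface, was not called in any of the 4 comparisons. Its activator Rhbdf2 rose by 1.2 in LPS vs NC (adjusted p = 0.000394). Timp3, an inhibitor of Adam17 that fibroblasts also make, rose by 1.88 in C498 vs NC and 1.86 in C498+LPS vs LPS. Adam10 had changes between -0.49 and -0.05.

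Of 15 regulators of the Csf2 and Csf3 genes and messages, 5 were called higher in LPS vs NC: Zc3h12a, Nfkb2, Nfkb1, Rel and Rela, where 5.55% of all tested genes were called higher. All but Rela were also called higher in C498+LPS vs C498, beside 2.52% of all tested genes. Zc3h12a (Regnase-1), an RNase that degrades cytokine messages, had means of 25.9 TPM in NC and 169 in LPS, a rise of 2.67. Zfp36 (tristetraprolin), which destabilises messages with AU-rich elements such as those of Csf2 and Csf3, was at 35.33 and 31.14 TPM in NC, 66.93 and 60.99 in LPS, 178.35 and 162.23 in C498, and 234.23 and 238.63 in C498+LPS. It rose by 2.32 in C498 vs NC (adjusted p = 4.07e-05) and by 1.87 in C498+LPS vs LPS (adjusted p = 0.000279). Rel (1.40, adjusted p = 0.0191) and Zfp36l2 (1.02, adjusted p = 0.0134) were also called higher in C498 vs NC, beside 5.64% of all tested genes. No regulator was called lower there, beside 1.36%. The Zfp36 relatives Zfp36l1 and Zfp36l2 rose by 1.79 and 1.24 in C498+LPS vs LPS, where 5.39% of all tested genes were called higher. In that comparison Cebpd, a factor that binds the Csf3 promoter, fell by 1.11, beside 2.18% called lower.

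Markers of the other cell types were compared beside these results. Fibroblasts, which are known to make Csf1, had Col1a1, Col1a2, Col3a1 and Dcn called higher with C498, both without and with LPS, and mesothelial markers summed to 4.66 to 5.58 TPM in NC, 5 to 5.36 in LPS, 14.8 to 20.9 in C498 and 15.5 to 24.5 in C498+LPS. On average over the 8 samples, 5 of 6 fibroblast markers and 4 of 5 mesothelial markers were above 1 TPM, while Lum, a further fibroblast gene, was close to 0. Of the mesothelial markers, Krt19 (means of 0.12 TPM in NC, 0.2 in LPS, 2.02 in C498 and 3.045 in C498+LPS) and Upk3b (0.505, 0.41, 1.675 and 1.62) were above it only through the C498 groups. The Csf1 and Csf3 levels of the C498 groups therefore come from samples that differ in fibroblast and mesothelial markers from the groups without C498. The part of these markers was not tested. Over all samples the summed markers ranged from 2.84 to 9.55 TPM for T cells, 3.54 to 12.9 for B cells, 0.6 to 2.26 for eosinophils, 8.57 to 22.8 for mast cells and 2.68 to 7.22 for endothelial cells. Dendritic cell markers summed to 0.89 to 2.09 TPM in the samples without C498 and to 3.2 to 4.95 in those with it. Only 1 of the 6 averaged above 1 TPM, Zbtb46, at means of 0.6 in NC, 0.635 in LPS, 2.01 in C498 and 2.805 in C498+LPS. Clec9a went the other way, at 0.55 in NC and 0.22 in C498. The part of the dendritic cell markers was not tested. The list of NK cells and ILC summed to 74.2 to 163 TPM, nearly all of it from Il7r.

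**Figure D5:**
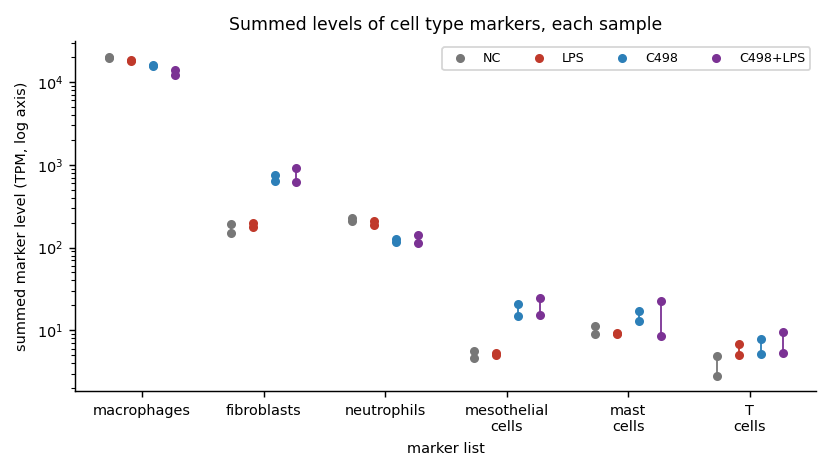
Summed TPM (vertical axis, log scale) of the markers of 6 cell types in each of the 8 samples, by group. Macrophage markers summed to 12300 to 20300 TPM, and fibroblast markers to 618 to 911 TPM in C498+LPS against 150 to 192 in NC.

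The genes whose pattern was most like each of the 7 were found by Pearson's r of log2(TPM + 1) over the 8 samples, as a description. For Csf3 they were Ccl3 (0.994), Tnfsf9 (0.993) and Il1rn (0.992), and for Csf2 Gm20784 (0.966), E2f5 (0.965) and Cd80 (0.965). For Csf1 they were Larp1b (0.995), Rbbp8 (0.991) and Osgin2 (0.988). For Csf1r they were Stard7 (0.988), Bhlhe41 (0.988) and Akr1c13 (0.986), and for Csf2ra Sh3bp2 (0.986), Rab5b (0.977) and Bst1 (0.976). For Csf2rb they were Tm4sf19 (0.992), Eif2ak4 (0.989) and Sdcbp (0.984), and for Csf2rb2 Lrrc8b (0.992), Cd109 (0.987) and Lrp6 (0.987). The 8 points come from 4 treatments of the same kind of cell, so high values of r are common among genes that differ between them.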

How the data were processed

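RNA was measured in 8 samples of mouse peritoneal macrophages, in 4 groups of 2. The authors extracted total RNA, prepared TruSeq libraries and processed the reads with tools that the submitters' notes name as fastp, HISAT2, StringTie and RSEM. The versions, genome build and annotation are not given in the sources used here. The authors deposited TPM per gene and sample with 2 decimals, beside the authors' group means, gene length and KEGG and GO annotation, which were not used except for length. The authors tested counts with DESeq2. Counts were not analysed here.

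Of 55801 genes, the 12189 that averaged 1 TPM or more were tested on log2(TPM + 1) in limma 3.58.1 (R 4.3.3). All 8 samples entered a model of group means, and variances were moderated with a trend on mean expression. P-values were adjusted (Benjamini-Hochberg) over all tested genes within each comparison. The fold change threshold of 2 and adjusted p of 0.05 are those of the study's methods. The test was also run on simulated data with changes planted only in genes well above the filter. That run did not cover low genes such as Csf2 or the interaction, and its outcome is not given here. The share of Csf2rb was compared by an exact permutation test (scipy 1.17.1). Figures were made with matplotlib 3.10.9.

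The 7 genes, the comparisons and the lists of pathway and marker genes were chosen with earlier results of these data known. Named are the 7 genes in every comparison, genes of the lists (2 of their genes are not reported here and are left out of the list counts), and the 3 genes most like each of the 7. Coding sequences and coordinates are from GENCODE M21 (GRCm38), where 11874 of the 12189 tested genes were found, and promoters are from RefSeq on GRCm38.p6. Alternatives were another pseudocount, filter, scaling, variance model and threshold, the groups compared alone, a replicate block, the summed beta chains, and each sample left out.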

Additional observations from a re-analysis of the deposited data

Results flagged for a closer look

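The LPS response differed with and without C498, by limma's test of the interaction over all tested genes, for 1 of the 7 genes, 4 of 76 tested pathway genes and 1 of 33 tested marker genes, where 0.468% of all tested genes were called and 0.394% were below 0. Those 9 calls above and 48 below 0 rest on single libraries: they were 0 and 9 without LPS replicate 1, 27 and 27 without NC replicate 2, and 13 and 10 without C498+LPS replicate 1. Csf3, with an interaction of -1.81 on the log2 scale (adjusted p = 0.0391), was the 1 of the 7. The response was also smaller with C498 for Osm by -1.57 (adjusted p = 0.0412), for Pim1, a kinase induced by STAT5, by -1.065 (0.0475), for Socs3 by -1.053 (0.0436) and for Il1rn, the antagonist of the IL-1 receptor, by -1.03 (0.0493). The marker was Cd14, the LPS co-receptor, at -1.001 (adjusted p = 0.0214). For Csf3, Osm, Pim1, Socs3, Il1rn and Cd14 the level was higher in C498 than in NC, the 2 groups that received no LPS. The log2 changes were 1.84, 2.80, 1.57, 1.34, 1.07 and 1.47.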

How the results depend on the processing

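Over 613 alternative values of the 7 genes' log2 changes, 565 kept their direction and side of the threshold. In LPS vs NC the number of DEGs among the 7 was 2, and was 1 with a pseudocount of 0.1, without a filter or with a filter of 5 TPM (Csf2 is then not tested), 4 without a fold threshold, 3 when centred, and 1 to 3 with a sample left out. In C498+LPS vs C498 it was 3, and 2 with a filter of 5 TPM, 2 when centred and 1 to 3 with a sample left out. In C498+LPS vs LPS it was 0, and 1 with the groups compared alone, 2 without a fold threshold and 0 to 1 with a sample left out. In C498 vs NC it was 1, and 2 without a fold threshold. In the interaction it was 1, and 0 without a filter, 0 without a variance trend and 0 to 1 with a sample left out. Changes that turned direction were all small and not called. Centring on the median gene gave 0.0605 for Csf2ra in LPS vs NC, -0.0377 for Csf3 in C498+LPS vs LPS, -0.0702 for Csf2 in C498 vs NC, and interactions of 0.0141 for Csf2rb and 0.0206 for Csf2rb2. Quantile normalization gave -0.0758 for Csf2 in C498 vs NC and interactions of 0.0466 for Csf2rb and 0.0504 for Csf2rb2, and a pseudocount of 0.1 gave -0.2817 for Csf2 in C498 vs NC. With a sample left out, Csf3 in C498+LPS vs LPS lay between -0.0554 and 0.1327, the interaction of Csf2rb between -0.3108 and 0.2476 and that of Csf2rb2 between -0.3224 and 0.2722, and in C498 vs NC Csf2 lay between -0.4409 and 0.5446 and Csf2rb2 between -0.0717 and 0.5229. The causes were not tested.

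Divided by the median gene, mean levels moved by more than 1 SD to 56.6 TPM for Csf1, 37.4 for Csf3, 217 for Csf1r, 723 for Csf2ra and 222 for Csf2rb in LPS, and to 41.6 for Csf1, 539 for Csf2ra, 304 for Csf2rb and 166 for Csf2rb2 in C498. Over all tested genes, 45.4% of DEGs in LPS vs NC were higher, against 61.7% after centring, 60.1% after quantile normalization, and with NC replicate 1 or NC replicate 2 left out it was 56.7% or 33.2%. In C498+LPS vs C498 the shares were 44.6%, 68.9% and 61%, and in C498 vs NC 80.5%, 67.7% and 67.3%. Deviations of same-numbered replicates correlated between groups at 0.0397 to 0.168, and the labels give no shared source, so the samples share only a number. A replicate block left the number of DEGs among the 7 at 2, 3, 0, 1 and 1, and gave 696 higher and 841 lower DEGs in LPS vs NC, against 677 and 814 without it. Over all genes the interaction had 9 calls above and 48 below 0, against 3 and 15 without a filter and 3 and 9 without a variance trend. With a sample left out they were 28 and 64 (NC replicate 1), 27 and 27 (NC replicate 2), 0 and 9 (LPS replicate 1), 2 and 11 (LPS replicate 2), 0 and 20 (C498 replicate 1), 3 and 33 (C498 replicate 2), 13 and 10 (C498+LPS replicate 1) and 19 and 13 (C498+LPS replicate 2). C498 vs NC had 687 higher and 166 lower DEGs, against 306 and 73 with the groups compared alone, 1187 and 195 when NC replicate 1 was left out, 425 and 215 for NC replicate 2, 274 and 71 for C498 replicate 1 and 309 and 81 for C498 replicate 2.

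With 2 samples a group and no known depth, the spread of Csf2, at under 1 TPM in NC and C498, is the least certain of the 7.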
